A study of Ovis aries with 18 samples.

Results

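The data described here are the gene counts of 10 sheep embryo pools, 5 sired by control rams and 5 by rams fed methionine, out of the 12 embryo pools and 18 samples of the series. The control pools were Embryo410_1, Embryo410_2, Embryo423_1, Embryo423_2 and Embryo444_1, and the methionine pools were Embryo424_1, Embryo424_2, Embryo424_3, Embryo424_4 and Embryo498_1, where the first number names the sire. The 10 were selected on their own counts, as the pools whose median Spearman correlation with the other pools was at least 0.7. All sires were Polypay rams, a sheep breed. Control sires (Ram410, Ram423 and Ram444) received a general basal diet, and treated sires (Ram424 and Ram498) had 1.5 g (0.22%) of methionine, coated so that rumen microbes do not break it down, added on top of that diet before puberty. Polypay ewes were superovulated and bred by these rams, and their uteri were flushed for blastocysts, of which each pool held 5. The RNA of a pool was freed of DNA and amplified over the whole transcriptome before sequencing, so a library stands for 5 embryos that share a sire. Embryos were pooled by their parents, and the ewe behind each pool is not given in the labels, so sire and dam cannot be told apart.

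A blastocyst is the embryo just before implantation and consists of an outer trophectoderm, which will form the placenta, and an inner cell mass, from which the epiblast and the hypoblast arise. It has begun to transcribe its own genome at a high rate, and the genes of protein synthesis, protein turnover and mitochondrial respiration are among its most abundant transcripts. Methionine feeds the methionine cycle, which supplies the methyl groups for DNA and histone methylation, and folate enzymes supply the methyl group that turns homocysteine back into methionine. The comparison asks whether embryos differ by the diet of the sire. Because the pools are nested in 5 rams, 4 of the 5 methionine pools having the same sire, values are given by pool and by ram.

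The median Spearman correlation of a pool with the other 11, over log2 CPM (counts scaled to a common library total), was 0.820 to 0.857 in the 10 pools. The pool just inside the limit was Embryo423_1 at 0.820, and those outside were Embryo511_1 at 0.600 and Embryo444_2 at 0.582. These values chose the pools. Total counts were 1326354 to 1554651 in the control pools and 1508599 to 2398589 in the methionine pools, and with sampling to equal depth 19292 to 19482 genes had a count in each pool. The 100 most abundant genes of a pool took 10.4% to 14.8% of the counts in the control pools, 12.8% to 13.2% in the 4 pools of Ram424 and 9% in the pool of Ram498. Pools Embryo424_1 and Embryo424_2 were more alike than any other pair. Their Spearman correlation was 0.955, against 0.828 to 0.895 for the other 7 pairs of pools of 1 ram and 0.806 to 0.868 for the 37 pairs of different rams. The chi-square per gene between their counts was 3.58, where sampling noise alone gives 1, against 9.41 to 21.9 for the other 44 pairs. They were counted as 2 pools, and several results of the diet contrast are also given with their counts summed, an alternative chosen after seeing the data. The contrasts of single rams and the division of the spread were not run with their counts summed. Among pools of different rams, pairs on the same diet had a median correlation of 0.831 (12 pairs) and pairs on different diets of 0.838 (25 pairs).

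The labels describe the cells as inner cell mass and trophectoderm, and markers of both were present in all 10 pools. KRT8, a keratin of the trophectoderm, was at 3814 to 9109.6 CPM in the control pools and 4618 to 11723 CPM in the methionine pools, and its partner KRT18 was at 682 to 1918 and 1108 to 2189 CPM. POU5F1, a pluripotency factor, was at 248 to 329 CPM in the control pools and 130.1 to 514 CPM in the methionine pools. GATA6 and PDGFRA of the hypoblast were at 243 to 773 CPM and 95.2 to 153 CPM. CDX2 was low at 22.4 to 108 CPM, NANOG at 4.92 to 16.0 CPM, and SOX17 had 40 counts in all 10 pools together. Among the defining markers GATA3, SOX2, CD3E, HBB, HBA, DCN, FSHR and CYP19A1 were not analysed here. Markers of other cells that a flush can hold were also present. Over the 10 pools PTPRC of leukocytes was at 38.8 to 75.1 CPM and CD74 at 5.83 to 20.7 CPM. COL1A1 and COL3A1 of uterine stroma were at 28.5 to 82.2 and 35.3 to 93.6 CPM, and HAS2 of cumulus cells at 34.6 to 65.6 CPM. All of these but CD74 overlapped the range of CDX2. The 14 leukocyte and blood genes (of 25 listed) summed to 227 to 868 CPM in the control pools, the highest being Embryo410_2, and to 237 to 303 CPM in the methionine pools. The 16 uterine genes (of 26) summed to 752 to 865 and 659 to 771 CPM, and the 7 cumulus and granulosa genes (of 19) to 251 to 357 and 232 to 288 CPM. The 24 sperm and testis genes (of 28) summed to 558 to 774 CPM in the control pools and 471 to 553 CPM in the methionine pools, without overlap, and 3 of the 15 tested were lower with methionine at an unadjusted p under 0.05, where 6.18% of all genes were lower. No measured member of these lists was at 0 in all 10 pools, but 19967 of all 20092 genes had a count in these pools. A count alone therefore says little on the presence of such cells, and the part of these lists in the results was not tested. With whole blastocysts in a pool, fewer cells of a type and less RNA per cell cannot be told apart.

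Of 16161 genes with at least 15 counts in at least 4 of the 10 pools, 1 passed a false discovery rate (FDR) of 0.05 between the diets by the quasi-likelihood test of edgeR with Benjamini-Hochberg adjustment. It was lower with methionine (0.00619% of the genes), and no gene passed in the other direction (0%). At an unadjusted p under 0.05, 927 genes (5.74%) were higher and 998 (6.18%) lower with methionine, and the median log2 fold change of all genes was -0.03. The 5 methionine pools all lay above the 5 control pools in 146 genes (0.903%) and all below them in 142 genes (0.879%). The number of calls differed between tests and between sets of pools. The likelihood-ratio test of edgeR, which takes the estimated dispersion as known, called 74 genes and DESeq2 called 103 at the same FDR, 61 of them by both, and in 44 of these 61 the groups did not overlap. With the ram as a random effect in limma 0 genes passed FDR 0.05 (1096 genes with an unadjusted p under 0.05), and with counts summed per ram in edgeR also 0 (760 genes with an unadjusted p under 0.05). With all 12 pools in the edgeR fit 0 genes passed, and there were 1306 genes with an unadjusted p under 0.05. The pools were chosen for likeness, so their spread is that of pools selected to be alike, and pools of a ram are not independent replicates of a diet.

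The gene that passed was MROH5, a member of the maestro HEAT-like repeat family, which fell with methionine. Its levels were 75.5, 37.4, 69.9, 71.0 and 81.3 CPM in pools Embryo410_1, Embryo410_2, Embryo423_1, Embryo423_2 and Embryo444_1, and 17.1, 20.2, 11.1, 19.9 and 22.5 CPM in pools Embryo424_1, Embryo424_2, Embryo424_3, Embryo424_4 and Embryo498_1, an order of pools that is kept below. The groups did not overlap, Embryo410_2 was the lowest control pool, and the means were 67.0 ± 17.2 and 18.2 ± 4.37 CPM (SD, n = 5 each). The log2 fold change (methionine minus control, ± standard error) was -1.87 ± 0.27 with an FDR of 0.0418 in edgeR's quasi-likelihood test. With Embryo424_1 and Embryo424_2 summed the log2 fold change was -1.88 and the FDR 0.176, and without Ram498 the FDR was 0.0541 (edgeR), so the call was lost in both. On leaving out each pool in turn the FDR was 0.00863 to 0.248 (edgeR), and it stayed under 0.05 without Embryo410_2 only. Over the means of the 5 rams an exact permutation test cannot go below a p of 0.1, which MROH5 reached.

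Among genes without a single dominant pool, those with the next smallest p that were lower with methionine did not pass the test. IMPA2, an inositol monophosphatase of inositol recycling, was at 56.3, 61.7, 54.3, 87.5 and 55.6 CPM in the control pools and 18.4, 21.8, 16.0, 23.8 and 30.2 CPM in the methionine pools, with a log2 fold change of -1.51 ± 0.25 (FDR 0.0787, edgeR). The pool of Ram498 was the highest of the methionine pools and below every control pool. RWDD2A, an RWD domain protein, was at 80, 43.0, 62.1, 64.0 and 52.1 CPM with control sires and 20.3, 21.8, 22.3, 21.9 and 27.2 CPM with methionine sires (log2 fold change -1.41 ± 0.23, FDR 0.0787, edgeR), and with all 12 pools the log2 fold change was -0.73. All 4 pools of Ram424 lay within 20.3 to 22.3 CPM. UNC93A, a membrane protein, ranged over 29.6 to 57.0 CPM in the control pools and 7.77 to 17.4 CPM in the methionine pools. LGI4, a secreted protein known from peripheral nerve myelination, ranged over 22.2 to 35.3 and 8.76 to 13.7 CPM. CASKIN1, a scaffold protein of neuronal contacts, ranged over 20.5 to 32.6 and 5.57 to 13.6 CPM, and LOC101121527 over 16.3 to 32 and 3.89 to 13.2 CPM. In each of these genes the groups stood apart. MRPS2, a protein of the small mitochondrial ribosome, was at 104, 175, 51.5, 119 and 18.8 CPM in the control pools and 18.9, 16.4, 12.5, 18.0 and 27.2 CPM in the methionine pools. The control pool of Ram444 lay among the methionine pools, and the other control pools were higher.

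Of the genes that were higher with methionine, none passed the test. UBA3, the catalytic subunit of the enzyme that activates the ubiquitin-like protein NEDD8, was at 25.9, 26.3, 16.2, 12.7 and 24.3 CPM in the control pools and 72.8, 59.0, 55.7, 41.8 and 84.0 CPM in the methionine pools (log2 fold change 1.57 ± 0.27, FDR 0.111, edgeR). The pool of Ram498 was the highest of all. DAB2, an endocytic adaptor of extraembryonic endoderm, was at 261, 269.6, 225, 223 and 164 CPM with control sires and 659, 709.9, 530.5, 449 and 425 CPM with methionine sires, with a log2 fold change of 1.28 ± 0.23 (FDR 0.111, edgeR). Here the pool of Ram498 was the lowest of the methionine pools and still above every control pool. FMR1, an RNA-binding regulator of translation, was at 102, 58.2, 85.4, 94.5 and 90.4 CPM and 204, 201, 145, 152 and 156 CPM (log2 fold change 0.99 ± 0.21, FDR 0.196, edgeR). ECSIT, an assembly factor of respiratory complex I, ranged over 16.0 to 31.1 CPM in the control pools and 49.7 to 63.3 CPM in the methionine pools. FAM83H, a protein bound to keratin filaments, ranged over 186 to 311 and 377 to 919.6 CPM with the pool of Ram498 at the top. DNAJC27, a J domain protein, ranged over 40.9 to 67.2 and 89.6 to 140.2 CPM, and C20H6orf136, an open reading frame, over 14.6 to 31.9 and 43.8 to 92.6 CPM. The levels of LOC101117289 overlapped, at 0.741 to 6.26 CPM in the control pools and 4.37 to 42.6 CPM in the methionine pools. These 16 genes were picked for their small p, and 14 of them had groups that stood apart. The exact permutation p of 0.00794 that these 14 reached is the smallest that 5 against 5 pools can give.

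**Figure D1:**
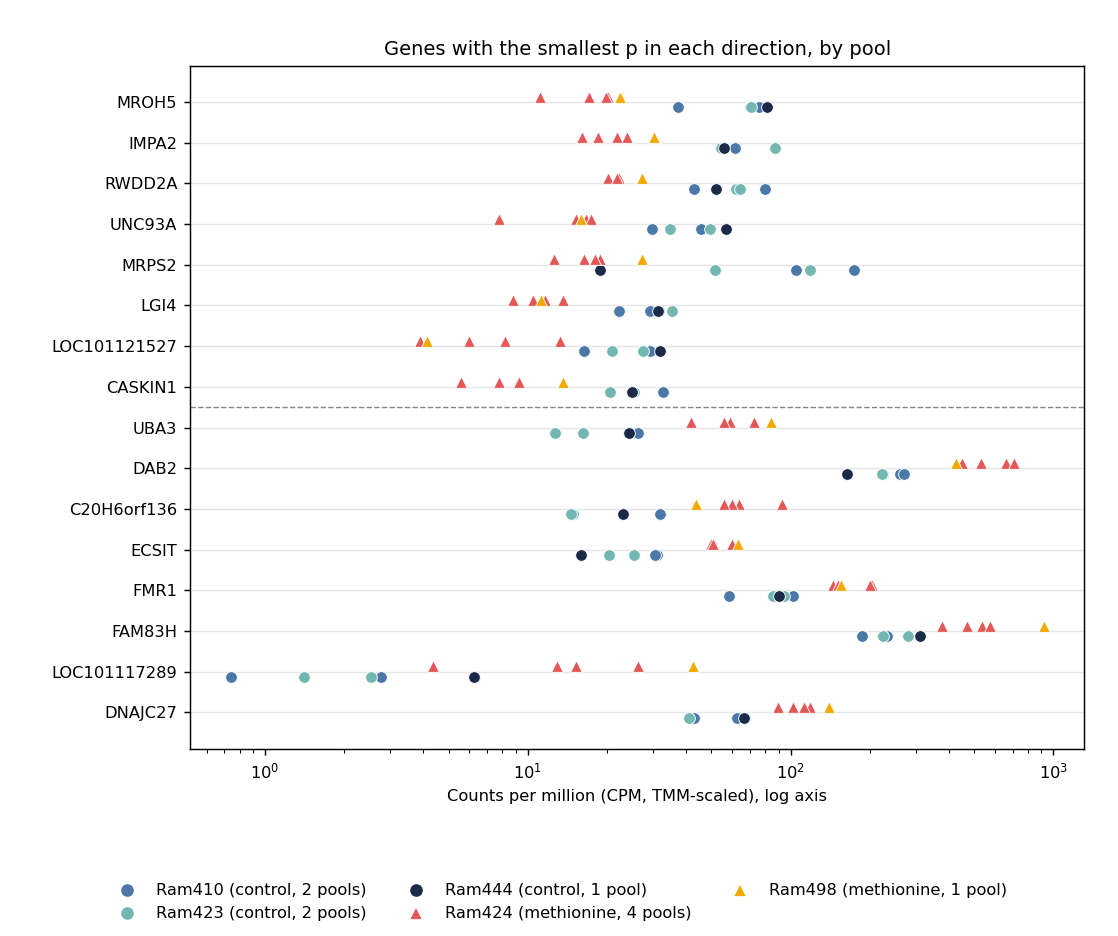
Level in CPM on a log axis (x) of the 8 genes with the smallest p in each direction (rows, lower with methionine above the dashed line), with 1 point for each of the 10 pools, circles for control sires and triangles for methionine sires. In 14 of the 16 genes no triangle overlaps a circle, MRPS2 and LOC101117289 being the exceptions.

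The genes that the study lists for this contrast were selected on 12 pools that include these 10, so their values are a description. HRC, a calcium-binding protein of the sarcoplasmic reticulum, was at 31.1, 17.3, 37.4, 48.8 and 14.6 CPM in the control pools and 8.30, 6.01, 11.1, 9.72 and 10.6 CPM in the methionine pools, without overlap (log2 fold change -1.70 ± 0.36, FDR 0.196, edgeR). CERS1, a ceramide synthase, lay within 6.93 to 7.65 CPM in the control pools and at 30.9, 107, 78, 9.23 and 11.8 CPM in the methionine pools, so that the groups stood apart by a narrow margin and 3 pools of Ram424 carried the size of the difference. TRAM1L1, a protein of the translocon family of the endoplasmic reticulum, was high in 2 pools only, at 199 CPM in Embryo424_1 and 916 CPM in Embryo424_2, and at 1.18 to 19 CPM in the other 8. DENND6B, an activator of Rab proteins, was at 1846 CPM in Embryo423_1 and at most 18.8 CPM in any other pool. GGT7, of the gamma-glutamyl transferase family, was at 1342 CPM in Embryo410_2 and 816 CPM in Embryo444_1 and at most 32.3 CPM elsewhere. In these 3 genes 1 pool held over 50% of the summed CPM, and without Embryo424_1 and Embryo424_2 the log2 fold change of TRAM1L1 was -0.96 in place of 4.05. LOC114111604 was at 9.63, 51.3, 34.6, 24.1 and 7.65 CPM and 4.61, 9.83, 8.35, 3.89 and 8.28 CPM, and LOC105604880 did not pass the filter on low counts.

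Gene functions were then followed through 56 lists of genes with a common role, and the level of a list in a pool was taken as the mean log2 CPM of its tested members, each relative to its own mean over the 10 pools. No member of any list passed FDR 0.05 in edgeR's quasi-likelihood test, so the counts below are of members with an unadjusted p under 0.05, to be read against 5.74% of all genes higher and 6.18% lower. The lists whose medians lay farthest from that of all genes were lists of basic cell functions, all higher with methionine. Their counts are also given with Embryo424_1 and Embryo424_2 summed, where 3.76% of all genes were higher, and with all 12 pools, where 3.55% were higher. They were led by translation factors, the TCA cycle, oxidative phosphorylation and the proteasome, followed by chaperonins, the cytoskeleton, polyamine synthesis and DNA replication. In all 8 the pools Embryo424_1 and Embryo424_2 lay above every control pool, and the pool of Ram498 lay among or below the control pools.

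Translation initiation and elongation factors load the ribosome and move it along the messenger. Of 36 tested, 15 were higher with methionine at an unadjusted p under 0.05 and 0 lower. Of the 36, 3 stood apart by diet, all higher, against 0.903% of all genes. The median log2 fold change was 0.52 against -0.03 for all genes. The level of the list was -0.18, -0.33, -0.01, -0.27 and -0.31 in the control pools and 0.68, 0.65, 0.12, 0.01 and -0.36 in the methionine pools. Embryo424_1 and Embryo424_2 were the highest, the other pools of Ram424 lay just above the control pools, and the pool of Ram498 was the lowest of all 10. With Embryo424_1 and Embryo424_2 summed, 9 were higher with a median of 0.37, and with all 12 pools 4 were higher with a median of 0.53. EIF4H, a helper of the initiation helicase, was at 191, 148, 169, 166 and 111 CPM in the control pools and 517, 499, 303, 267 and 179.8 CPM in the methionine pools (log2 fold change 1.17 ± 0.28, FDR 0.237, edgeR). PABPC1, the poly(A)-binding protein, was at 687, 603, 610.5, 545 and 633 CPM and 2629, 2357, 1147, 815 and 561 CPM (log2 fold change 1.29 ± 0.36, FDR 0.258, edgeR). EEF1A1, which carries aminoacyl-tRNA to the ribosome, was at 524, 489, 589, 614 and 412 CPM and 1751, 1746, 811, 720.4 and 526 CPM. In both genes the pool of Ram498 lay within the range of the control pools, and the pools Embryo424_1 and Embryo424_2 were higher than the other pools of the same ram. EIF3L, a subunit of initiation factor 3, stood apart by diet at 132 to 179 CPM in the control pools and 194 to 323 CPM in the methionine pools.

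The TCA cycle oxidises acetyl groups in the mitochondrion, and oxidative phosphorylation uses the electrons it yields to make ATP. Of 15 TCA cycle genes 5 were higher at an unadjusted p under 0.05 and 0 lower (median log2 fold change 0.40), and of 47 nuclear genes of oxidative phosphorylation 15 were higher and 0 lower (median 0.38). With Embryo424_1 and Embryo424_2 summed 3 and 11 were higher (medians 0.37 and 0.32), and with all 12 pools 3 and 1 (medians 0.52 and 0.39). The level of the TCA cycle list was -0.18, -0.29, 0.01, -0.16 and -0.28 in the control pools and 0.34, 0.32, 0.26, 0.15 and -0.17 in the methionine pools, and every pool of Ram424 was above every control pool. For oxidative phosphorylation the list levels were -0.12, -0.34, 0.12, -0.08 and -0.44 in the control pools and 0.44, 0.33, 0.36, 0.02 and -0.30 in the methionine pools. Embryo424_4 lay within the range of the control pools for this list, and the pool of Ram498 within it for both. ATP5F1B and ATP5F1A, the catalytic and the paired subunit of the ATP synthase head, were at 387 to 467 and 250.2 to 397 CPM in the control pools. ATP5F1B was at 1270.3, 1202, 737, 611 and 418 CPM in the methionine pools (log2 fold change 1.01 ± 0.29, FDR 0.258, edgeR), and ATP5F1A at 866, 885, 698, 508 and 358 CPM. ATP5PF, of the stalk of the same enzyme, was at 251.8, 194, 211, 245 and 180.1 CPM and 563, 541, 497, 292 and 139.6 CPM, with the pool of Ram498 the lowest of all. SDHC, of complex II, was at 105 to 201 CPM in the control pools, 251.8 to 294 CPM in the pools of Ram424 and 160.3 CPM in that of Ram498. IDH3B, a subunit of isocitrate dehydrogenase, differed from these in that the pool of Ram498 lay with those of Ram424, at 21.5, 28.4, 34.6, 31.1 and 32.7 CPM and 52.5, 51.3, 45.3, 43.2 and 48.5 CPM, without overlap (FDR 0.276, edgeR). The dehydrogenase subunits DLD and PDHB and the ligase subunit SUCLG1 had log2 fold changes of 0.78 ± 0.28, 0.59 ± 0.23 and 0.56 ± 0.25.

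The proteasome degrades proteins marked with ubiquitin. Of its 29 genes tested 9 were higher at an unadjusted p under 0.05 and 0 lower, and 4 stood apart by diet against 0.903% of all genes. The median log2 fold change was 0.38, and 9 members were higher with Embryo424_1 and Embryo424_2 summed (median 0.34) and 4 with all 12 pools (median 0.36). In the control pools the list was at -0.24, -0.34, 0.04, -0.25 and -0.21, and in the methionine pools at 0.48, 0.49, 0.31, 0.03 and -0.31. PSMA2, of the ring of the core particle, was at 36.3, 20.1, 29.6, 29.2 and 24.3 CPM in the control pools and 64.5, 60.6, 57.1, 61.7 and 40.8 CPM in the methionine pools (log2 fold change 1.03 ± 0.23, FDR 0.228, edgeR). PSMD12, of the lid, was at 51.8, 54.1, 33.9, 39.9 and 43.1 CPM and 90.8, 116, 75.2, 57.8 and 72.7 CPM, and PSMC6, an ATPase of the base, at 32.6, 33.3, 26.8, 32.3 and 22.9 CPM and 57.6, 72.1, 53.6, 36.9 and 53.8 CPM. In these 3 genes the pool of Ram498 was above every control pool, while the level of the whole list in this pool was below the control mean of -0.20. PSMB6, a catalytic subunit of the core, overlapped, at 112 to 171 CPM and 168 to 277 CPM.

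Chaperonins and heat shock proteins fold new proteins, and 4 of 21 were higher at an unadjusted p under 0.05 and 0 lower (median log2 fold change 0.36). With the pair of like pools summed 2 were higher (median 0.26), and with all 12 pools 2 (median 0.44). In the control pools the list was at -0.15, -0.25, 0.11, -0.03 and -0.38 and in the methionine pools at 0.58, 0.55, 0.11, -0.11 and -0.43, where the pool of Ram498 was the lowest of the 10. HSPA8, the constitutive heat shock protein of the cytosol, was at 825, 475, 679.6, 744 and 570.1 CPM in the control pools and 2118, 2133, 867, 694 and 560 CPM in the methionine pools (log2 fold change 0.95 ± 0.36, FDR 0.345, edgeR). The high values were those of Embryo424_1 and Embryo424_2. CCT2, CCT8 and CCT3, subunits of the chaperonin that folds actin and tubulin, had log2 fold changes of 0.85 ± 0.26, 0.70 ± 0.26 and 0.58 ± 0.24, none with an FDR under 0.267 in edgeR.

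Of 32 genes of the cytoskeleton and motility 6 were higher at an unadjusted p under 0.05 and 2 lower (median log2 fold change 0.33). On summing the like pair 4 were higher (median 0.28), and with all 12 pools 3 (median 0.36). List levels were -0.07, -0.16, 0.10, -0.07 and -0.32 in the control pools and 0.30, 0.25, 0.22, 0.11 and -0.38 in the methionine pools. TUBB, a beta-tubulin, was at 50.4, 38.8, 76.2, 65.9 and 50.1 CPM in the control pools and 115, 112, 157, 188 and 44.9 CPM in the methionine pools, and ARPC2, of the complex that branches actin filaments, at 344, 308, 361, 323 and 235 CPM and 965, 1412, 659, 389.6 and 279 CPM. In both the pool of Ram498 lay with the control pools. ARPC1B, of the same complex, was lower with methionine, at 17.0 to 42.3 CPM with control sires and 8.26 to 17.5 CPM with methionine sires. EZR, which links actin to the membrane of microvilli, stood apart by diet at 793, 893, 913, 723 and 486 CPM and 1471, 1352, 1162, 1296 and 1062 CPM (log2 fold change 0.74 ± 0.24, FDR 0.28, edgeR).

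Polyamine synthesis draws on decarboxylated S-adenosylmethionine, and the salvage pathway returns its sulfur-bearing remnant to methionine. Of 12 genes 3 were higher at an unadjusted p under 0.05 and 1 lower (median log2 fold change 0.33), and the level of the list was -0.06, -0.33, 0.12, -0.14 and -0.29 in the control pools and 0.35, 0.35, 0.30, 0.10 and -0.39 in the methionine pools. With the like pair summed 2 were higher (median 0.28), and with all 12 pools 1 (median 0.37). ODC1, which makes the first polyamine, was at 444.4, 272, 354, 193 and 419.9 CPM in the control pools and 1388, 1299, 550, 344 and 298 CPM in the methionine pools (log2 fold change 1.2 ± 0.41, FDR 0.293, edgeR). SMS, the spermine synthase, was at 48.1, 52.7, 35.3, 40.6 and 27.8 CPM and 101, 90.1, 79.4, 56.8 and 29.6 CPM. The pool of Ram498 lay within the control range for ODC1 and near its lower end for SMS, and with all 12 pools the log2 fold change of SMS was 0.49 in place of 0.81. PAOX, which breaks polyamines down, was lower, at 20.7 to 43.1 CPM with control sires and 14.7 to 20.1 CPM with methionine sires, without overlap. APIP, of the salvage pathway, was at 19.7 to 58.5 and 34.9 to 86.7 CPM. Of 42 DNA replication genes 10 were higher and 0 lower (median log2 fold change 0.31), with list levels of -0.10, -0.13, 0.03, -0.28 and -0.22 in the control pools and 0.34, 0.33, 0.08, -0.02 and -0.03 in the methionine pools. The count was 5 with the like pair summed (median 0.29) and 4 with all 12 pools (median 0.31). MCM6 and MCM3, of the replicative helicase, ranged over 68.6 to 84.8 and 67.8 to 109 CPM in the control pools and 78.1 to 158 and 102 to 162 CPM in the methionine pools. RRM2, of ribonucleotide reductase, had a log2 fold change of 0.65 ± 0.23 and PCNA, the sliding clamp, of 0.70 ± 0.27.

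The pathways nearest to the supplement had medians closer to that of all genes. Of 16 genes of the methionine cycle and transsulfuration 1 was higher at an unadjusted p under 0.05 and 3 lower, with a median log2 fold change of -0.07. List levels were 0.14, 0.18, -0.13, 0.19 and -0.10 in the control pools and -0.06, 0.06, -0.02, -0.14 and -0.13 in the methionine pools. AHCY, which clears S-adenosylhomocysteine, was at 174, 175, 147, 191 and 152 CPM in the control pools and 396, 365, 374, 352 and 143 CPM in the methionine pools (log2 fold change 0.96 ± 0.25, FDR 0.24, edgeR). All 4 pools of Ram424 were above the control pools in this gene, and the pool of Ram498 was below all of them. BHMT, which remethylates homocysteine with betaine, was lower at 34.1, 42.3, 17.6, 38 and 28.5 CPM with control sires and 17.5, 18.6, 11.1, 20.4 and 17.7 CPM with methionine sires, and here both rams were low. With all 12 pools its log2 fold change was -0.016 in place of -0.90. NNMT and PEMT, methyltransferases that consume S-adenosylmethionine, had log2 fold changes of -1.36 ± 0.52 and -0.79 ± 0.37, the highest pools being control pools, Embryo410_1 (133 CPM) and Embryo423_1 (76.9 CPM) for NNMT and Embryo444_1 (86.2 CPM) for PEMT. Of 17 folate genes 6 were higher and 0 lower (median 0.15), with list levels of -0.08, -0.09, -0.09, -0.20 and 0.01 in the control pools and 0.23, 0.32, -0.13, 0.03 and -0.01 in the methionine pools. ATIC, of purine synthesis, stood apart at 122, 103, 100.2, 138 and 111 CPM and 195, 184, 152, 194 and 157 CPM (log2 fold change 0.62 ± 0.19, FDR 0.264, edgeR). SHMT2, the mitochondrial serine hydroxymethyltransferase, was at 200, 83.9, 116, 65.9 and 225 CPM and 418, 667, 209.6, 206 and 112 CPM, with the groups overlapping. MTHFD1L and ALDH1L2, mitochondrial folate enzymes, had log2 fold changes of 0.59 ± 0.22 and 0.47 ± 0.22. With Embryo424_1 and Embryo424_2 summed 3 folate genes were higher at an unadjusted p under 0.05 (median 0.09), with all 12 pools 0 were in edgeR (median 0.18), and there ALDH1L2 had a log2 fold change of 0.29.

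Of 17 genes that write, read or erase DNA methylation 2 were higher at an unadjusted p under 0.05 and 2 lower, with a median log2 fold change of 0.07. TRIM28, a corepressor that guards imprints, was at 152, 166, 124, 153 and 126 CPM in the control pools and 312, 312, 185, 135 and 593 CPM in the methionine pools. The pool of Ram498 was the highest, and Embryo424_4 lay within the control range. ZFP57, the zinc finger protein that recruits TRIM28 to imprinted regions, was at 27.0 to 68.9 CPM and 18.5 to 28.6 CPM, with a log2 fold change of -0.77 that was -0.48 with all 12 pools. TET3 and TET1, which oxidise methylated cytosine, had differences of opposite sign, with log2 fold changes of -0.54 ± 0.20 and 0.53 ± 0.24. TET3 was at 98.1 to 171 CPM with control sires and 80.1 to 106 CPM with methionine sires, both rams being at the low end. DNMT1 was not analysed here.

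The lineage lists also had medians nearer to that of all genes. Of 14 trophectoderm factors 3 were higher at an unadjusted p under 0.05 and 1 lower (median log2 fold change 0.26), of 14 pluripotency and epiblast factors 2 were higher and 0 lower (median 0.26), and of 17 hypoblast genes 1 was higher and 0 lower (median 0.03). With the like pair summed 3, 1 and 1 were higher, and with all 12 pools 2, 0 and 1. For the trophectoderm list the levels were -0.11, -0.11, -0.005, -0.03 and -0.35 in the control pools and 0.09, 0.03, 0.29, 0.32 and -0.12 in the methionine pools. Embryo424_3 and Embryo424_4 were the highest pools here. DLX5 and MSX2, homeobox factors, were at 27.1 to 60.7 and 18.7 to 38.5 CPM in the control pools and 53.2 to 105 and 33.7 to 57.8 CPM in the methionine pools. GATA2 was at 47.4, 60.3, 38.1, 42.5 and 32.7 CPM in the control pools and 78.8, 79.7, 84.9, 75.3 and 43.2 CPM in the methionine pools (log2 fold change 0.71 ± 0.24, FDR 0.293, edgeR), with the pool of Ram498 again among the control pools. ELF5 was lower, with a log2 fold change of -1.06 ± 0.42 and 1 high control pool, Embryo444_1, at 125 CPM. With all 12 pools its log2 fold change was -0.61. ZFP42, a marker of naive pluripotency, was at 139, 89.4, 117, 99.5 and 113 CPM and 353, 339.7, 139.9, 152 and 109 CPM. KLF5, ESRRB and TDGF1 had log2 fold changes of 0.67 ± 0.31, 0.43 ± 0.23 and -0.54 ± 0.36. Among hypoblast genes DAB2 had the smallest p, PDGFRA was slightly lower without overlap (log2 fold change -0.35 ± 0.18), and COL4A1 and GATA6 had log2 fold changes of -0.47 ± 0.23 and 0.57 ± 0.30. The markers KRT8 (0.12 ± 0.38), KRT18 (0.05 ± 0.31), TFAP2C (0.35 ± 0.25), CDX2 (-0.40 ± 0.38), POU5F1 (0.26 ± 0.30), NANOG (-0.46 ± 0.36) and GATA4 (-0.29 ± 0.28) had log2 fold changes within 2 standard errors of 0. For POU5F1 the methionine rams went opposite ways, with log2 fold changes against the control pools of 0.47 for Ram424 and -1.20 for Ram498. The single pool of Ram498, at 130.1 CPM, was below every control pool in this gene. The pools of Ram424 were unlike each other in these markers. The 17 keratins and desmosome genes summed to 6935 and 7066 CPM in Embryo424_1 and Embryo424_2 and to 13783 and 14383 CPM in Embryo424_3 and Embryo424_4, against 5292 to 12094 CPM in the control pools. The 20 hypoblast genes summed to 5684 and 5608 CPM in Embryo424_1 and Embryo424_2, above the 3181 to 3871 CPM of the control pools and the 3314 to 3824 CPM of the other methionine pools. The 16 pluripotency and epiblast genes summed to 2408 and 2382 CPM in the same pair and to 1441 to 1973 CPM in the control pools. Embryo424_3 at 2091 CPM was also above every control pool, Embryo424_4 at 1820 CPM was within their range, and the pool of Ram498 was at 1138 CPM. So the pools with the highest levels of translation factors also had the highest sums of hypoblast and pluripotency genes. By list level the pair was highest for the pluripotency list, at 0.33 and 0.22 against at most 0.11 in the control pools. For the hypoblast list Embryo424_1 and Embryo424_2 were at 0.139 and 0.098, with the control pool Embryo410_1 between them at 0.101. The part of cell makeup in the lists was not tested.

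**Figure D2:**
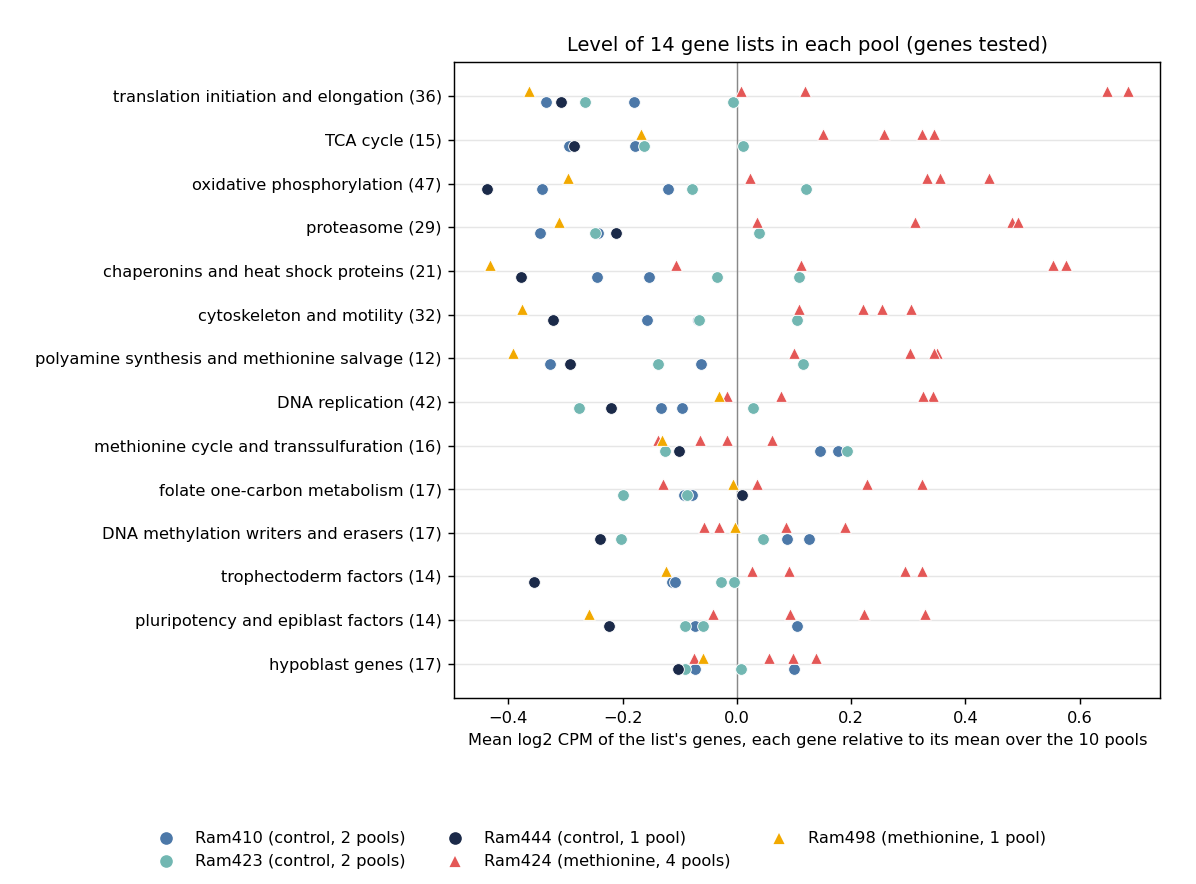
Level of 14 gene lists (rows, number of tested genes in brackets) in each of the 10 pools, as the mean log2 CPM of the members relative to each gene's mean over the pools (x). Circles are control sires and triangles methionine sires, and in the upper 8 rows the triangle of Ram498 lies among or left of the circles while those of Embryo424_1 and Embryo424_2 lie right of all of them.

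The methionine rams were set against each other directly in a fit with 1 coefficient per ram. Of all genes, 841 (5.2%) were lower in the pool of Ram498 than in the pools of Ram424 at an unadjusted p under 0.05 and 783 (4.84%) higher. Of the translation factors 15 of 36 were lower in Ram498 and 0 higher, of oxidative phosphorylation 12 of 47 and 0, of chaperonins 9 of 21 and 0, of the cytoskeleton 8 of 32 and 0, of the proteasome 6 of 29 and 0, and of the TCA cycle 4 of 15 and 0. Of 67 cytosolic ribosome genes 35 were lower in Ram498 and 0 higher, with a median log2 difference of -0.85. Of 42 DNA replication genes 2 were lower and 3 higher, with a median log2 difference of -0.33 against -0.02 for all genes. PABPC1 differed by -1.63 (Ram498 minus Ram424, log2, edgeR FDR 0.409), HSPA8 by -1.38 (edgeR FDR 0.487) and AHCY by -1.38 (edgeR FDR 0.226), so that none of these genes passed the test. MROH5 differed by 0.38 and UBA3 by 0.55 between the same rams. Ram498 has a single pool, whose spread is borrowed from the other rams.

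Each methionine ram was also set against the same 5 control pools, and since the controls are shared the values are given side by side only. Against the controls 1315 genes (8.25% of 15945) were higher in Ram424 and 308 (2.06% of 14944) in Ram498 at an unadjusted p under 0.05. The translation factors had 21 of 36 higher in Ram424 and 0 in Ram498, with medians of 0.66 and -0.17. The proteasome had 17 of 29 and 0 (medians 0.54 and -0.17), and oxidative phosphorylation 19 of 47 and 0 of 46 (medians 0.47 and -0.09). For the cytosolic ribosome 23 of 67 were higher in Ram424 and 0 in Ram498, with medians of 0.36 and -0.45. For all genes the medians were -0.05 and -0.07.

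**Figure D3:**
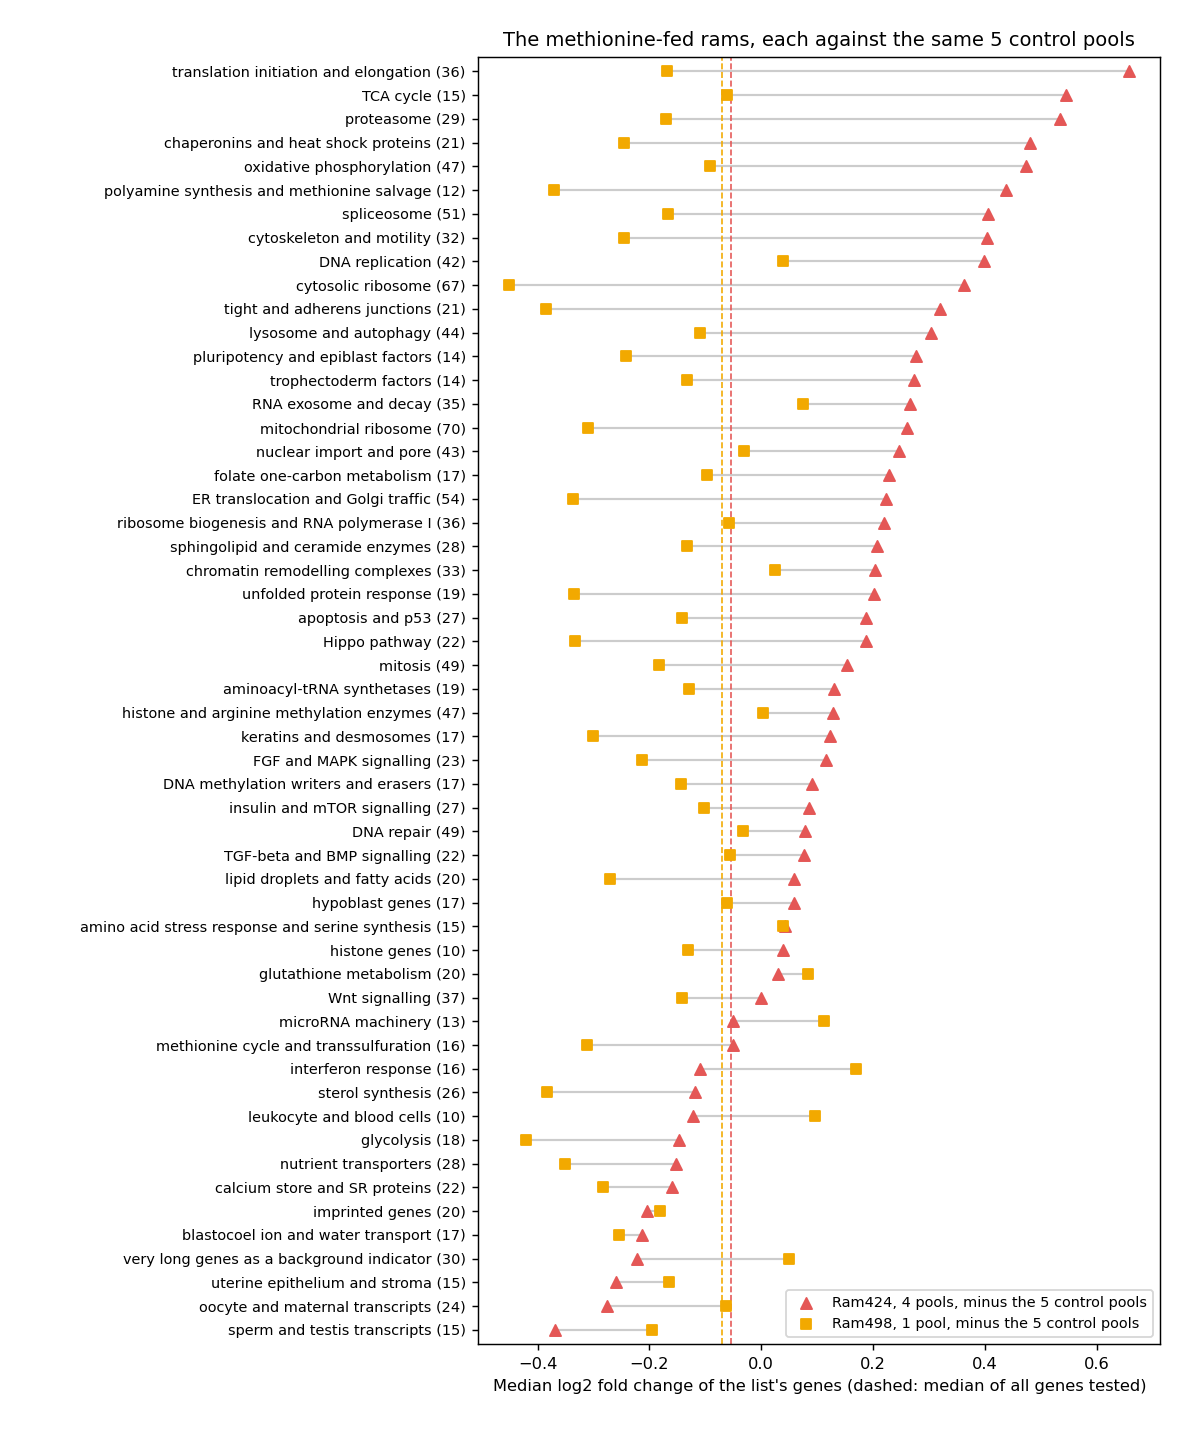
Median log2 fold change (x) of each gene list with at least 8 tested genes (rows, number of genes in brackets) for the 4 pools of Ram424 (red triangles) and the pool of Ram498 (yellow squares), each against the same 5 control pools, with dashed lines for all genes. Translation factors, in the top row, lie at 0.66 for Ram424 and at -0.17 for Ram498.

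The position of the pools also followed the level of the genes. The genes were put into 5 equal groups by mean level. In the group with the highest level (3232 genes, median 6.90 log2 CPM) the mean log2 CPM relative to the 10 pools was -0.05, -0.11, 0.09, -0.09 and -0.11 in the control pools and 0.21, 0.20, 0.05, -0.00091 and -0.18 in the methionine pools. In the group with the lowest level the order was turned, with -0.17 in Embryo424_1, -0.16 in Embryo424_2 and 0.11 in Embryo498_1, against -0.08 to 0.11 in the control pools. The median log2 fold change of the diet contrast was -0.14 in the lowest group and 0.11 in the highest. The 8 lists that lay farthest from all genes have median levels above the 5.25 log2 CPM of all genes (translation factors 7.13, cytoskeleton 7.22, TCA cycle 6.84), and their median log2 fold changes were 0.31 to 0.52. A list of 30 very long genes had levels of -0.30, -0.31, -0.02, 0.08 and 0.17 in the methionine pools and -0.01 to 0.15 in the control pools. The share of counts in the 100 most abundant genes was 9% in the pool of Ram498, 12.8% to 13.2% in those of Ram424 and 10.4% to 14.8% in the control pools, the highest being Embryo423_1. The part of these measures of library composition in the differences was not tested. The plot of the pools by gene level shows the lines of Embryo424_1 and Embryo424_2 rising from left to right and that of Embryo498_1 falling.

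**Figure D4:**
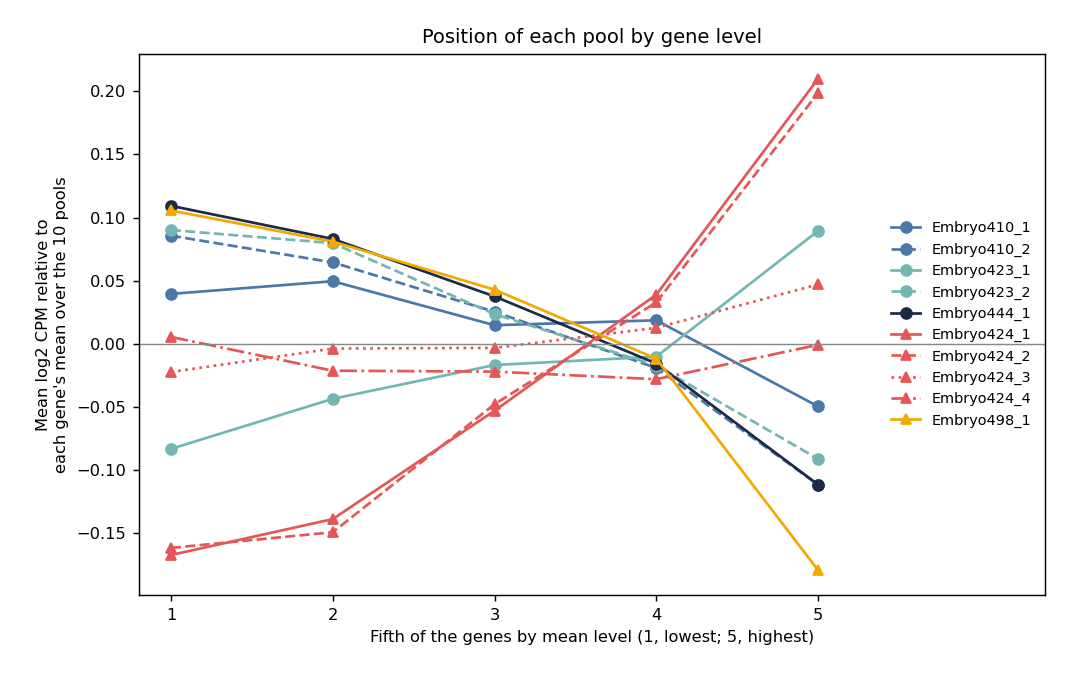
Mean log2 CPM of each pool relative to each gene's mean over the 10 pools (y) in 5 equal groups of genes by mean level (x, 1 the lowest and 5 the highest), 1 line for each pool, coloured by ram. In the highest group Embryo424_1 and Embryo424_2 lie at 0.21 and 0.20 and Embryo498_1 at -0.18.

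The pairs of rams that differed in the largest share of genes were those with Ram424, the ram with the most pools. Between rams on the control diet, 8.54% of the genes had an unadjusted p under 0.05 for Ram410 against Ram423, 8.2% for Ram423 against Ram444 and 6.8% for Ram410 against Ram444. Between the methionine rams Ram424 and Ram498 it was 10%. Between diets, the pairs with Ram424 had 13.2% against Ram410, 12.3% against Ram444 and 11.4% against Ram423, and the pairs with Ram498 had 7.1% against Ram423, 5.98% against Ram444 and 5.56% against Ram410. The number of pools of a ram, whose part in these shares was not tested, was 4 for Ram424, 2 for Ram410 and Ram423 and 1 for Ram444 and Ram498. Ram444 and Ram498 with 1 pool each take their spread wholly from the pools of the other 3 rams, so their shares rest on single libraries. At FDR 0.05 in edgeR the control rams differed in 0 genes (Ram410 and Ram423, 1380 genes at an unadjusted p under 0.05), 14 genes (Ram410 and Ram444) and 11 genes (Ram423 and Ram444). The methionine rams differed in 17 genes. Ram424 differed in 1 gene from Ram410, in 7 from Ram423 and in 85 from Ram444, and Ram498 differed in 4 genes from Ram410, in 1 from Ram423 and in 5 from Ram444.

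**Figure D5:**
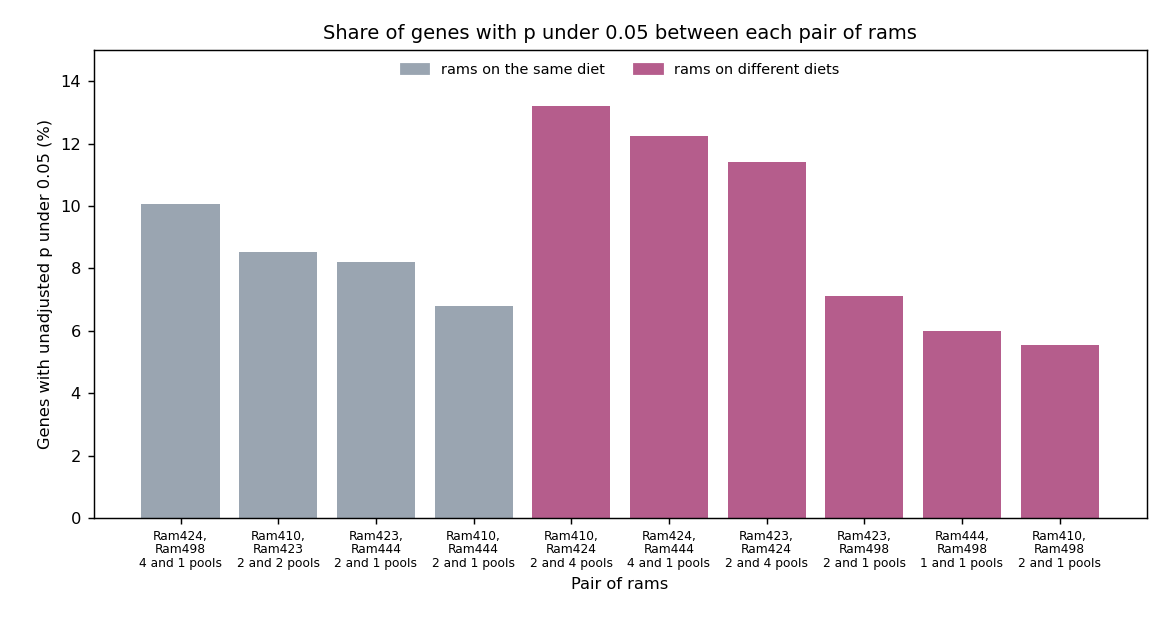
Share of 16161 genes with an unadjusted p under 0.05 (y, percent) for each of the 10 pairs of rams (x, with the number of pools of each), in grey for rams on the same diet and purple for rams on different diets. The 3 tallest bars are Ram424 against each control ram, and the 3 pairs of Ram498 with control rams lie at 5.56% to 7.1%.

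The spread of log2 CPM over the 10 pools was divided into diets, rams within diets and pools within rams. Of the summed squares of all genes, 14.9% lay between diets, 37.1% between rams within diets and 48% between pools within rams. The degrees of freedom (1, 3 and 5) would give 11.1%, 33.3% and 55.6% if neither diets nor rams differed. For the translation factors the shares were 27.7%, 35.0% and 37.3%, and for the proteasome 32.1%, 35.3% and 32.7%. For the cytosolic ribosome 50.7% lay between rams within diets and 17.9% between diets. The methionine cycle list had 20% between diets and the folate list 24.3%. In these 5 lists the share between diets was above the 14.9% of all genes. Spread between rams also enters the share between diets, so this share is not that of the diet alone. Over the other lists this share ranged from 5.3% (leukocyte and blood cells) to 28.5% (TGF-beta and BMP signalling), so a high share was not particular to these 5.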

How the data were processed

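Raw gene counts were used as deposited by the authors, who demultiplexed the reads with bcl2fastq, checked them with FastQC, trimmed them with Trimmomatic and counted reads per gene with STAR on Oar_rambouillet_v1.0. The strand setting is not given in the sources used here, so overlapping and near-identical genes are uncertain. No column of the table was left unmapped (0). The sperm methylation counts, the other part of the series, were not used here.

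The pools, lists and tests were chosen with earlier results of these data known. Of 20092 genes, 16161 had at least 15 counts in at least 4 of the 10 pools. Counts were scaled by the trimmed mean of M values and tested in R 4.3.3 by edgeR 4.0.16 (quasi-likelihood, glmQLFit and glmQLFTest) with Benjamini-Hochberg adjustment, in 1 fit by diet and 1 by ram. The standard error is the size of the log2 fold change divided by the square root of F. Log2 CPM used a prior count of 2. Alternatives were the likelihood-ratio test, DESeq2 1.42.0, limma 3.58.1 with the ram as a random effect (consensus correlation 0.103), counts summed per ram, ram means, other scalings and filters, all 12 pools, and leaving out each pool or ram. The 5 kinds of test were tested on simulated data of independent pools without a ram effect. This does not show how they behave with pools nested in rams. Replicates are pools, so p-values measure the spread between pools, which may be partly technical, and reads from amplified RNA carry no molecular identifiers, so counts overstate the number of molecules.

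Genes were named by rule: any gene with an FDR under 0.05, the 8 with the smallest p in each direction without a pool holding over 50% of the summed CPM, up to 4 members with the smallest p in the 8 lists farthest from the median of all genes and in 6 lists on one-carbon metabolism, DNA methylation and cell lineages, the genes the study names, and cell markers. Promoter and protein sequences were not used here.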

Additional observations from a re-analysis of the deposited data

Results flagged for a closer look

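Some pools lay far from the other pools of their group, which chance does in about 1 in 20 groups. In the control pools these were the low MROH5 of Embryo410_2 (37.4 CPM), the high IMPA2 of Embryo423_2 (87.5 CPM), the high PEMT (86.2 CPM) and TDGF1 (61.2 CPM) of Embryo444_1, DENND6B in Embryo423_1 (1846 CPM), and the high CDX2 of Embryo410_1 (108 CPM). In the methionine pools the pool of Ram498 was set apart by a high RWDD2A (27.2 CPM), a low AHCY (143 CPM), a low GATA2 (43.2 CPM) and a low level of the cytoskeleton and motility list (-0.38). UNC93A was low in Embryo424_4 (7.77 CPM), ALDH1L2 (45.9 CPM) and COL1A1, a collagen of stromal cells (28.5 CPM), were low in Embryo424_3, DENND6B was high in Embryo424_3 (18.8 CPM), and TRAM1L1 was high in Embryo424_2 (916 CPM).

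For 8 of the 14 lists described in full all 4 pools of Ram424 lay above the control mean while the pool of Ram498 lay below it, a difference between rams that was not tested for the list as a whole. The level of the pool of Ram498 minus the control mean was -0.15 for translation initiation and elongation, -0.12 for oxidative phosphorylation, -0.11 for the proteasome, -0.29 for chaperonins and heat shock proteins, -0.27 for the cytoskeleton and motility, -0.25 for polyamine synthesis and methionine salvage, -0.0025 for trophectoderm factors and -0.19 for pluripotency and epiblast factors.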

How the results depend on the processing

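The number of genes with an FDR under 0.05 was 1 by edgeR's quasi-likelihood test. It was 74 by the likelihood-ratio test and 103 by DESeq2, 2 without Ram424, and 0 with counts summed per ram, ram means, the ram as a random effect, all 12 pools, without Ram423, without Ram498, and (chosen after seeing the data) with Embryo424_1 and Embryo424_2 summed or both left out. On leaving out each pool it was 0 to 1. It was 1, MROH5 each time, with the other scalings, filters and robust dispersion, and without Ram410. Without Ram444 it was also 1, but the gene was MRPS2 (FDR 0.0121, edgeR) in place of MROH5. The number of genes with an unadjusted p under 0.05 was 1925. It was 760 with counts summed per ram, 1096 with the ram as a random effect, 1275 with ram means, 514 without Ram424, 910 without both Embryo424_1 and Embryo424_2, and 1247 (without Embryo424_1) to 2539 (without Embryo498_1) on leaving out each pool. For Ram410 against Ram424 it was 1391 (without Embryo424_1) to 2374 (2134 with all 10 pools), and for Ram423 against Ram424 it was 1223 (without Embryo424_1) to 2011 (1842). The FDR of the log2 fold change of MROH5 was 6.58e-07 (DESeq2) to 0.9996 (without Ram424). The log2 fold change turned negative without Ram424 for PABPC1 (-0.128), PDHB (-0.013), SUCLG1 (-0.374), ATP5F1B (-0.00151), ATP5PF (-0.626), SDHC (-0.00176), HSPA8 (-0.228), CCT3 (-0.341), TUBB (-0.318), ARPC2 (-0.165), ODC1 (-0.170), SMS (-0.461), APIP (-0.197), AHCY (-0.226), SHMT2 (-0.299), TET1 (-0.178), GATA2 (-0.0285), ZFP42 (-0.0241) and KLF5 (-0.284), where the pool of Ram498 alone stands for methionine and its spread is taken from the control pools. Among the lineage genes the log2 fold change also turned negative without Ram424 for POU5F1 (-1.20), GATA6 (-0.376), TFAP2C (-0.236), KRT8 (-0.377), KRT18 (-0.260) and ESRRB (-0.0671). The log2 fold change of TRAM1L1 turned negative without both Embryo424_1 and Embryo424_2 (-0.959). Why the counts differed between tests was not tested. No paired analysis was possible because pool numbers count the pools of a ram and tie no control pool to a methionine pool. Depth limits genes of few counts, and 2 treated rams limit any statement on the diet.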

Other observations

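Among lists not described above, the genes named here were chosen after their values were seen, and none passed an FDR of 0.05 in edgeR's quasi-likelihood test. The counts below are to be read against 5.74% of all genes higher and 6.18% lower at an unadjusted p under 0.05. The share higher was 3.76% with Embryo424_1 and Embryo424_2 summed and 3.55% with all 12 pools. Pools are in the order Embryo410_1, Embryo410_2, Embryo423_1, Embryo423_2 and Embryo444_1, then Embryo424_1, Embryo424_2, Embryo424_3, Embryo424_4 and Embryo498_1. Of 28 nutrient transporters 5 were lower at an unadjusted p under 0.05 and 0 higher (median log2 fold change -0.13). With Embryo424_1 and Embryo424_2 summed 3 were lower, where 676 of all 16235 genes were lower. With all 12 pools 2 were lower, where 720 of all 16488 genes were lower. SLC7A1, a transporter of cationic amino acids, was at 187, 202, 141, 194 and 202 CPM in the control pools and 77.9, 79.2, 139, 115 and 103 CPM in the methionine pools, and both rams lay below every control pool. SLC1A4, a transporter of neutral amino acids, was at 101, 67.9, 85.4, 46.3 and 58.4 CPM with control sires and 31.8, 30.0, 49.4, 35.9 and 37.8 CPM with methionine sires, with Embryo424_3 in the control range. Of 44 lysosome and autophagy genes 11 were higher and 1 lower (median 0.21), and 9 were higher with Embryo424_1 and Embryo424_2 summed and 6 with all 12 pools. The lysosomal membrane protein LAMP2 was at 158, 174, 138, 138 and 163 CPM in the control pools and 416, 396, 194, 202 and 166 CPM in the methionine pools, so that Embryo424_1 and Embryo424_2 were highest and the pool of Ram498 lay in the control range. ATG3, an enzyme of autophagosome formation, was at 34.1, 44.4, 40.2, 17.1 and 59.1 CPM with control sires and 147, 92.8, 104, 48.6 and 56.8 CPM with methionine sires. Over these 44 genes the median log2 difference of Ram498 minus Ram424 was -0.49, against -0.02 for all genes. Of 51 spliceosome genes 10 were higher and 0 lower (median 0.31), 4 were higher with the like pair summed and 6 with all 12 pools.

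The cytosolic ribosome had 10 of 67 genes higher and 1 lower (median 0.23), but 3 higher with Embryo424_1 and Embryo424_2 summed (median 0.15) and 1 with all 12 pools (median 0.31). The lower gene was RPL8, a protein of the large subunit, at 5522, 6798, 10219, 7212 and 8056 CPM in the control pools and 3922, 4230.1, 4541, 4159.8 and 2822 CPM in the methionine pools, with the pool of Ram498 the lowest. RPL29 of the same subunit was at 73.3, 62.4, 77.6, 64.7 and 51.4 CPM with control sires and 133, 96.7, 87.0, 116 and 86.9 CPM with methionine sires. In both the groups stood apart, and they were the only such members, 1 of 67 in each direction. Of all genes 0.903% stood apart as higher and 0.879% as lower. In TGF-beta and BMP signalling 3 of 22 genes were higher and 5 lower (median 0.08). ID1, a target of BMP signals, was at 57.0, 52.0, 49.4, 97.6 and 54.2 CPM in the control pools and 26.7, 42.6, 36.9, 38.9 and 30.8 CPM in the methionine pools, without overlap. The ligand BMP6 was at 8.89, 31.2, 28.9, 24.1 and 49.4 CPM with control sires and 11.1, 14.2, 9.05, 12.6 and 16.0 CPM with methionine sires, and Embryo410_1 was the lowest of all pools. BMP2, another ligand, was at 17.8, 13.2, 14.8, 10.8 and 20.2 CPM in the control pools and 20.3, 24.0, 18.1, 41.3 and 33.1 CPM in the methionine pools, and its log2 fold change of 0.84 was 0.051 with all 12 pools. CLDN6, a tight junction protein of embryonic epithelium, was at 114, 105, 110.1, 106 and 81.3 CPM with control sires and 238, 222, 178, 178 and 115 CPM with methionine sires, the pool of Ram498 lying just above the control pools. Of 20 imprinted genes 1 was higher and 2 lower (median -0.20), the higher one being PEG3, expressed from the paternal copy in mammals, at 64.4, 70.0, 65.6, 43.1 and 59.1 CPM in the control pools and 142, 149, 114, 60.2 and 86.3 CPM in the methionine pools. The 24 oocyte and maternal transcripts tested had 0 members past an unadjusted p of 0.05 in either direction by edgeR (median -0.16).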
